A study of Mus musculus with 2 samples.

Results

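Stem cell factor and the colony-stimulating factors keep blood-forming and tissue-resident immune cells alive, dividing and differentiating. In adipose tissue, stromal cells are the usual source of the ligands, and macrophages, which depend on the receptor encoded by Csf1r, are the best known responders. The 8 genes described here are the ligand genes Kitl (stem cell factor), Csf1 (macrophage colony-stimulating factor) and Il34 (the other ligand of the Csf1 receptor), and the receptor genes Kit, Csf1r, Csf2ra, Csf2rb and Csf3r. Kit binds stem cell factor and Csf1r binds both Csf1 and Il34. Csf2ra and the common beta chain Csf2rb form the receptor of granulocyte-macrophage colony-stimulating factor, and Csf3r binds granulocyte colony-stimulating factor. They were taken by symbol from the 32285 genes counted in both libraries, and 8 of 8 were found. The set was chosen by measured CPM in these same libraries, so the values below are descriptions and carry no test.

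The study asked what homoharringtonine (HHT), a plant alkaloid that blocks translation and is used against leukemia, does to adipose tissue of obese mice. Male C57BL/6 N mice received a high-fat diet (HF) from 8 weeks of age, and after 6 weeks also intraperitoneal HHT, dissolved in DMSO and diluted in PBS (HF-HHT), or PBS (HF-PBS), 3 times per week for 8 weeks, with HF going on in both groups. Epididymal white adipose tissue (WAT), the fat depot beside the testis, was frozen, and DAPI-stained nuclei were flow-sorted for droplet-based single-nucleus RNA sequencing. Each condition gave 1 library from the pooled tissue of 3 mice, so no difference has a replicate check, and all intervals are 95% exact intervals of the counts (Poisson for a level, Clopper-Pearson for a share and for a ratio) that cover counting error only.

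After filtering, 6448 HF-HHT and 6651 HF-PBS nuclei were kept, with median depths of 3967.5 and 4314 unique molecular identifiers (UMIs, counted RNA molecules), and 13 barcodes occurred among the kept nuclei of both libraries. Nuclei fell into 14 clusters, each named for the marker list that led it and to be read as adipocyte-like, macrophage-like and so on. Adipocytes numbered 849 and 148 nuclei, adipose progenitor cells (APCs) 673 and 751, macrophages 2241 and 3595, and all 10 adipocyte and all 9 APC markers were found in their own cluster. Duct epithelium (691 and 0 nuclei) and multiciliated cells (120 and 0), which belong to the male genital tract and not to fat, came only from HF-HHT. A level is given as CPM, for which the UMIs of a gene were summed over all nuclei of a class and scaled by all UMIs of that class in the library. Free RNA outside nuclei was measured in barcodes too shallow to hold one, and its CPM is given beside the level.

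Positions refer to the GENCODE annotation of GRCm38, the assembly the authors counted on as mm10. Kitl lies at chr10:100015630-100100416 (plus strand), Csf1 at chr3:107741048-107760469 (minus) and Il34 at chr8:110741829-110805924 (minus). Among the receptors, Kit lies at chr5:75574916-75656722 (plus), Csf2ra at chr19:61223957-61228429 (minus), Csf2rb at chr15:78325752-78353847 (plus) and Csf3r at chr4:126024550-126044440 (plus). Il34 overlaps 2 genes on the other strand, Gm15894 and Gm15895, and Csf1r overlaps Hmgxb3 there and the microRNA gene Mir6983 on its own strand. Csf2rb has a near copy, Csf2rb2, and 12.3% of the 50-base words of its transcripts occur in Csf2rb2 as well, so the split of reads between these genes is uncertain.

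Promoter sequence was at hand for 5 of the 8 genes (RefSeq, GRCm38.p6), and 3 of them are shown as examples that held a motif searched, those of the ligand gene Kitl and of the receptor genes Csf3r and Csf2ra. GAGGAA is the core read by the myeloid factor PU.1 (gene Spi1), and TATAAA is the TATA box. In the 250 bases before the start on either strand, GAGGAA occurred in 23.3% and TATAAA in 12.4% of the 32851 promoters searched, so a match is a description of the window only. Capitals mark the motif, and each run is written 5′ to 3′ on the strand of the gene.
Kitl, chr10:100015784-100015813, plus strand: gggagggagctgTATAAAaagcgctggcgg
Csf3r, chr4:126024561-126024590, plus strand: cctccttcctgaGAGGAAggggctgtctat
Csf2ra, chr19:61228419-61228668, minus strand: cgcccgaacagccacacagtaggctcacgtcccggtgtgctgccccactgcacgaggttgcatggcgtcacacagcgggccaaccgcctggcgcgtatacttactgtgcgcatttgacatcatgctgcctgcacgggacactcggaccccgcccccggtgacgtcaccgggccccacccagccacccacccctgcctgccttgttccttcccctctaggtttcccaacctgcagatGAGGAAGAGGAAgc
The TATAAA of Kitl began 25 bases before the start RefSeq gives it, and the GAGGAA of Csf3r 86 bases before its RefSeq start. Csf2ra held 2 copies of GAGGAA side by side, the nearer of them 8 bases before its RefSeq start. The GENCODE spans of these genes given above begin upstream of the RefSeq starts. The Kitl and Csf3r matches and the nearer Csf2ra copy lie inside those spans. The 2 entries of Kit held 2 GAGGAA matches in all and no TATAAA, and that of Csf1 held neither.

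By whole class, the ligand Kitl was at its highest in different cells in the libraries (plot of the 3 ligand genes). In HF-HHT it was highest in endothelium (442 CPM, interval 402 to 486), followed by dividing nuclei (254), macrophages (226), mesothelial cells (173) and duct epithelium (171). In HF-PBS it was highest in adipocytes (341 CPM, interval 315 to 368), followed by perivascular cells (226), macrophages (213), endothelium (210.4) and dividing nuclei (180.1). The intervals of perivascular cells (155 to 320 CPM), macrophages (207 to 219) and endothelium (170.0 to 257) overlapped in HF-PBS, so their order cannot be told there. In a finer clustering, blood endothelium held Kitl at 695 CPM in HF-HHT and 482 CPM in HF-PBS (426 and 91 UMIs). Both values were above every whole class of their library. Lymphatic endothelium held 21.8 and 11.6 CPM, and the smaller HF-PBS adipocyte state described below 582 CPM. Free RNA held Kitl at 102 CPM in HF-HHT and 167 CPM in HF-PBS, and T and NK cells, which are not known as a source, stood below it at 15.9 and 31.4 CPM.

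In adipocytes, Kitl was 6.31-fold lower in HF-HHT. It stood at 54.0 CPM (544 UMIs, interval 49.6 to 58.8) in HF-HHT and 341 CPM (653 UMIs) in HF-PBS, a log2 ratio of −2.66 (interval −2.82 to −2.49), while the median gene of the class stood at 0.31. Kitl was thus below free RNA in HF-HHT adipocytes and above it in HF-PBS adipocytes. A Kitl UMI was seen in 25.7% of HF-HHT and 67.6% of HF-PBS adipocyte nuclei, and in 4.83% and 18.4% once each nucleus was thinned to 1000 UMIs, with shallower nuclei left out (849 and 147 adipocyte nuclei, 634 and 748 APC nuclei, 2174 and 3575 macrophage nuclei, 98 and 145 dendritic cell nuclei, and 429 and 556 T and NK nuclei were deep enough). Thinned T and NK nuclei gave 1.17% and 3.24%, at median depths of 1549 and 1734 UMIs before thinning, against 11625 and 13219 UMIs in adipocytes. Kitl was lower in both adipocyte states that a finer clustering separated. The larger state held 62.7 CPM in HF-HHT and 307 CPM in HF-PBS, and the smaller one, led by Slc1a3 and Acvr1c, 23.4 and 582 CPM. The values of the smaller state rest on 52 UMIs in 238 HF-HHT nuclei and 138 UMIs in only 25 HF-PBS nuclei.

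Single nuclei carried part of the adipocyte level. At least 5 Kitl UMIs were found in 25 of 849 HF-HHT and 45 of 148 HF-PBS adipocyte nuclei, and the 3 highest nuclei held 48 of 544 and 162 of 653 UMIs, so the intervals are too narrow. Without those nuclei the log2 ratio was −2.42, an alternative chosen after seeing the data. The macrophage markers summed to 167 CPM in HF-HHT and 1550 CPM in HF-PBS adipocytes with 0 of 9 at 0, but Mertk alone made up 127 and 1367 CPM, which in HF-PBS exceeded its level in macrophages (1149 CPM). The other 8 markers summed to 40.3 and 183 CPM. In adipocyte nuclei with no UMI of those 8 markers, Kitl stood at 49.8 CPM (565 nuclei) in HF-HHT and 394 CPM (28 nuclei) in HF-PBS, a log2 ratio of −2.99 on 329 and 134 UMIs.

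In macrophages, Kitl stood at 226 CPM in HF-HHT and 213 CPM in HF-PBS (log2 ratio 0.08, interval 0.01 to 0.15), within 1.5-fold of each other, and the sign turned under other scalings of the class sums (−0.12 with TMM factors and −0.13 with median-of-ratios factors). Macrophage states did not share 1 level (plot of macrophage states). Kitl was higher in HF-HHT in 4 of 6 states, with 482 and 222 CPM in the state led by Cd163 and Lyve1, and 352 and 215 CPM in the one led by Atp6v0d2 and St18. It was lower in the monocyte-like states, with 29.4 and 63.6 CPM in the state led by Klra2 and Ccr2, and 9.62 and 20.1 CPM in the one led by Acod1 and Saa3. The monocyte-like states numbered 376 and 349 nuclei in HF-HHT and 213 and 144 in HF-PBS, and with the states weighted as in HF-PBS the log2 ratio was 0.53.

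Endothelium and mesothelial cells held more Kitl in HF-HHT, and T and NK cells and perivascular cells less. Endothelium stood at 442 CPM in HF-HHT and 210.4 CPM in HF-PBS (log2 ratio 1.07, interval 0.75 to 1.41), but the blood endothelium within it, which held nearly all of the UMIs, at 695 and 482 CPM (0.53). Mesothelial cells stood at 173 and 95.6 CPM (0.86, interval 0.55 to 1.17). T and NK cells (16 and 43 UMIs) had a log2 ratio of −0.98, and perivascular cells (6 and 32 UMIs in 27 and 29 nuclei) one of −1.66. APCs, at 101 and 98.6 CPM, did not differ beyond counting error (interval of the log2 ratio −0.18 to 0.25). Free RNA held Kitl at 102 CPM in HF-HHT and 167 CPM in HF-PBS, so APCs did not stand above it in either library. Mesothelial cells of HF-PBS and perivascular cells of HF-HHT (71.4 CPM) were also below free RNA, as were T and NK cells of both libraries.

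**Figure D1:**
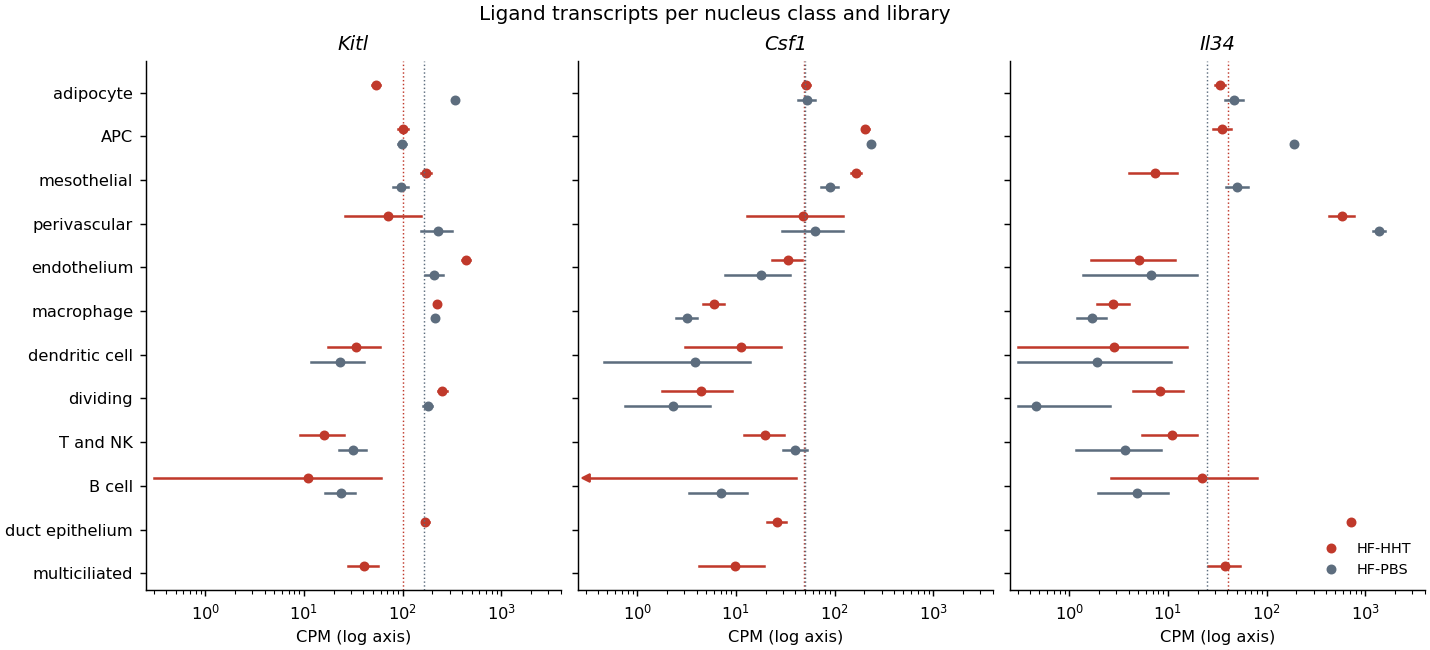
CPM of the ligand genes Kitl, Csf1 and Il34 (log axis) in each nucleus class, 1 point per library with its 95% Poisson interval; dotted lines mark the CPM in free RNA of each library and a left-pointing triangle marks 0 counts. Adipocyte Kitl stands at 54.0 CPM in HF-HHT and 341 CPM in HF-PBS, and APC Il34 at 35.5 and 190.0 CPM.

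Csf1 was a stromal gene in both libraries. APCs held 205 CPM (571 UMIs, interval 188 to 222) in HF-HHT and 235 CPM (1194 UMIs, interval 222 to 249) in HF-PBS, a log2 ratio of −0.20 (interval −0.34 to −0.05), which is within 1.5-fold. Free RNA held 48.7 and 50.4 CPM, and macrophages, which carry the receptor of Csf1, only 5.99 and 3.16 CPM. A Csf1 UMI was seen in 41.6% and 62.1% of APC nuclei, but thinned to 1000 UMIs the shares were 18.0% and 18.9%, against 0.598% and 0.420% of macrophage nuclei. The median depth of APC nuclei was 3381 UMIs in HF-HHT and 5809 UMIs in HF-PBS.

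Of the other classes compared, the mesothelium, the cell layer that covers the depot, held Csf1 well above free RNA in both libraries. Its level was 165 CPM (315 UMIs) in HF-HHT and 89.2 CPM (110 UMIs) in HF-PBS, a log2 ratio of 0.89 (interval 0.57 to 1.22). Thinned shares were 10.3% and 8.97% of nuclei. Adipocytes stood at 51.1 and 52.7 CPM, both close to free RNA. T and NK cells held 19.8 and 40.1 CPM (20 and 55 UMIs, log2 ratio −1.02), below free RNA in both libraries.

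Il34 was lower in HF-HHT in APCs, perivascular cells and mesothelial cells. In APCs it stood at 35.5 CPM (99 UMIs, interval 28.9 to 43.2) in HF-HHT and 190.0 CPM (966 UMIs, interval 178 to 202) in HF-PBS, which is 5.35-fold lower in HF-HHT (log2 ratio −2.42, interval −2.73 to −2.12). A UMI was seen in 7.43% and 29.8% of APC nuclei, and in 2.52% and 11.1% after thinning, against 0.322% and 0.224% of thinned macrophage nuclei. Free RNA held 40.8 and 24.7 CPM, so HF-HHT APCs did not stand above it. The 3 APC states differed. The largest, led by Gpc6 and Meg3, held 41.9 CPM in HF-HHT and 229 CPM in HF-PBS, while the state led by Fbn1 and Sema3e held 43.5 and 43.0 CPM, and the state led by C7 and Plcxd3 had 1 and 3 UMIs.

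Perivascular cells, which wrap small vessels, had the highest Il34 level of any fat tissue class in both libraries. They stood at 583 CPM (49 UMIs in 27 nuclei, interval 432 to 771) in HF-HHT and 1373 CPM (194 UMIs in 29 nuclei, interval 1187 to 1580) in HF-PBS, a log2 ratio of −1.23 (interval −1.72 to −0.78), with a UMI in 59.3% and 96.6% of nuclei (48.0% and 69.0% after thinning). Mesothelial cells stood at 7.35 and 50.2 CPM (14 and 62 UMIs, log2 ratio −2.77), and adipocytes at 33.8 and 47.0 CPM (log2 ratio −0.48), within 1.5-fold. After thinning, an Il34 UMI was seen in only 0.643% of 311 HF-HHT and 1.28% of 156 HF-PBS mesothelial nuclei. The 3 highest mesothelial nuclei held 4 of 14 and 22 of 62 UMIs. Perivascular markers summed to 295 CPM in HF-HHT APCs and 405 CPM in HF-PBS APCs (1 and 0 of 6 at 0), of which Pdgfrb made up 203 and 302 CPM. In APC nuclei with no UMI of the other 5 perivascular markers, Il34 stood at 25.03 CPM (564 nuclei) and 128 CPM (570 nuclei), a log2 ratio of −2.35. In those with 1 or more, it stood at 71.2 CPM (45 UMIs in 109 nuclei) in HF-HHT and 332 CPM (515 UMIs in 181 nuclei) in HF-PBS. The part of perivascular RNA in the APC values was not tested. Of all APC nuclei, the 3 highest held 29 of 99 and 78 of 966 Il34 UMIs.

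Among the receptors, Kit (the receptor of stem cell factor and a marker of mast cells) was sparse, with 464 UMIs in 315 of 6448 HF-HHT nuclei and 218 UMIs in 96 of 6651 HF-PBS nuclei. No nucleus with a Kit UMI held 2 or more of the 7 mast cell markers. In HF-HHT, duct epithelium held 51.3% of the Kit UMIs and multiciliated cells 13.1%, and of the 165 UMIs outside these classes, endothelium held 26.1%, T and NK cells 24.8% and dendritic cells 18.8%. In HF-PBS, dendritic cells held 56.4% and endothelium 24.8%.

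Dendritic cells held less Kit in HF-HHT, at 87.4 CPM (31 UMIs in 106 nuclei, interval 59.4 to 124) in HF-HHT and 236 CPM (123 UMIs in 147 nuclei, interval 196 to 282) in HF-PBS, a log2 ratio of −1.43 (interval −2.05 to −0.86). A UMI was seen in 18.9% and 36.1% of nuclei (10.2% and 15.9% after thinning), at median depths of 2743.5 and 3137 UMIs, against 0.942% and 1.35% of the deeper adipocyte nuclei. The 3 highest dendritic cell nuclei held 9 of 31 HF-HHT and 26 of 123 HF-PBS Kit UMIs. All 7 mast cell markers were at 0 in dendritic cells of both libraries. The 6 dendritic cell markers themselves summed to 986 CPM in HF-HHT and 1658 CPM in HF-PBS (none at 0), and the 6 monocyte markers to 628 and 278 CPM (0 and 3 at 0), and their part in the Kit values was not tested. Free RNA held 17.2 and 6.79 CPM.

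Kit in T and NK cells went the other way, with 40.7 CPM (41 UMIs) in HF-HHT and 8.03 CPM (11 UMIs) in HF-PBS, a log2 ratio of 2.34 (interval 1.35 to 3.45), and most of these UMIs lay in the NK-like state (81.7 and 20.4 CPM). NK cell markers summed to 685 and 233 CPM in T and NK cells (0 of 6 at 0 in each library) and markers of dividing cells to 649.7 and 309 CPM (0 of 6 at 0). Markers of type 2 innate lymphoid cells, some of which carry Kit, summed to 202 and 104 CPM there (2 of 6 at 0 in each library), and duct epithelium markers to 61.5 and 2.92 CPM (0 and 4 of 6 at 0). Their part in the Kit values was not tested. Endothelium stood at 43.8 CPM in HF-HHT and 121 CPM in HF-PBS (log2 ratio −1.46), but 3 nuclei held 41 of the 54 HF-PBS UMIs, and without the 3 highest nuclei of each library the log2 ratio was −0.35 (interval −1.38 to 0.75).

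**Figure D2:**
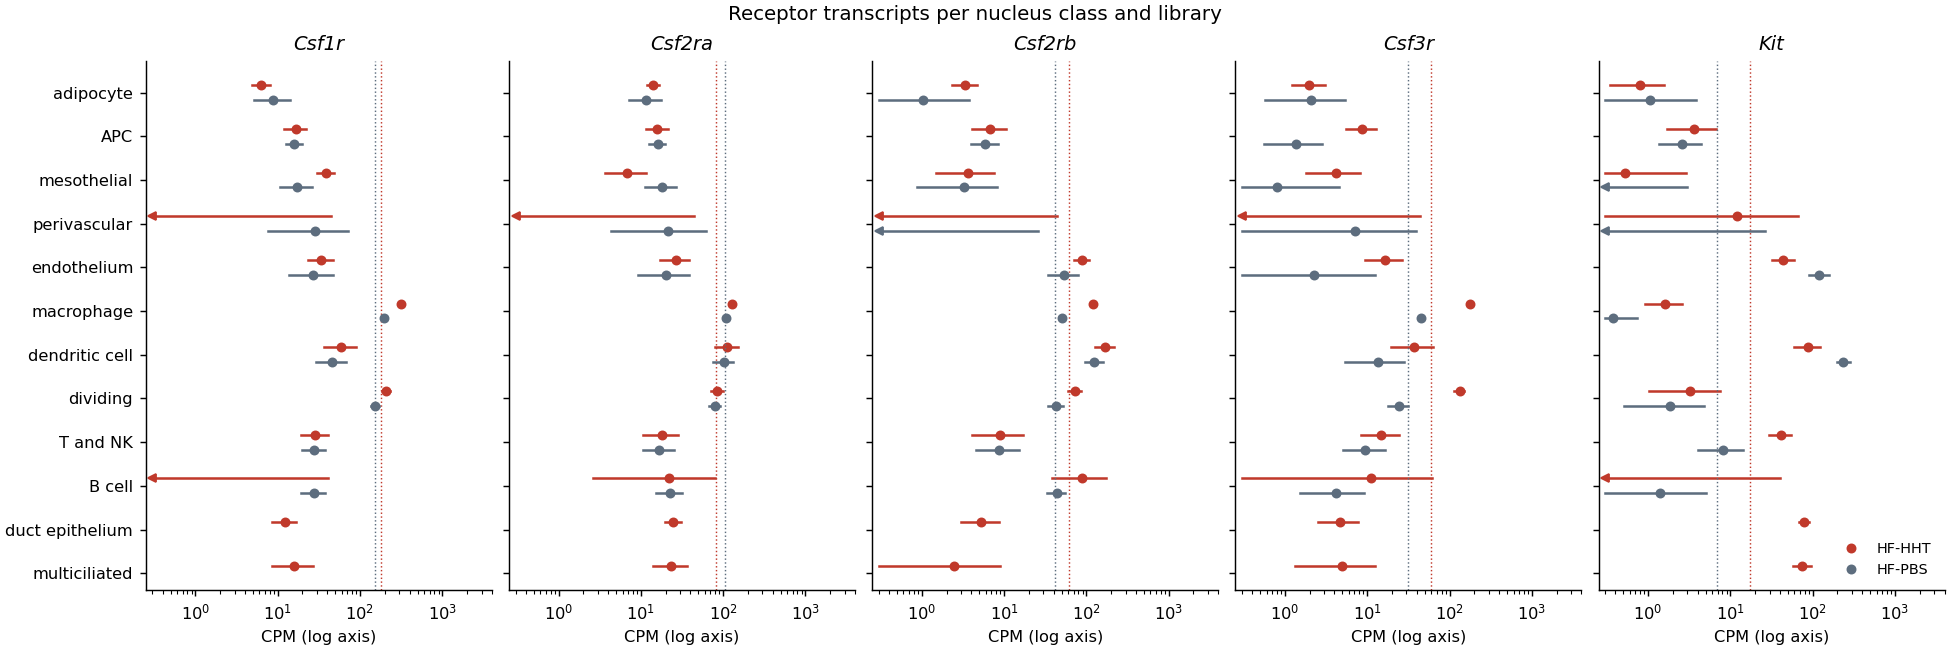
CPM of the receptor genes Kit, Csf1r, Csf2ra, Csf2rb and Csf3r (log axis) in each nucleus class, 1 point per library with its 95% Poisson interval; dotted lines mark free RNA and a left-pointing triangle marks 0 counts. Csf1r stands highest in macrophages of both libraries (318 CPM in HF-HHT and 197 CPM in HF-PBS). Kit stands at 87.4 and 236 CPM in dendritic cells. In HF-HHT its interval there overlaps those of duct epithelium and multiciliated nuclei, so their order cannot be told.

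Csf1r, the receptor on which tissue macrophages depend, lay where the macrophages were. Macrophages held 83.3% of its UMIs in HF-HHT and 88.2% in HF-PBS, and adipocytes stood at 6.36 and 8.88 CPM, far below free RNA (179 and 150.2 CPM). In macrophages it stood at 318 CPM (3398 UMIs, interval 308 to 329) in HF-HHT and 197 CPM (4232 UMIs, interval 191 to 203) in HF-PBS, a log2 ratio of 0.69 (interval 0.63 to 0.76). A UMI was seen in 60.7% and 57.0% of macrophage nuclei (median depths 4055 and 4947 UMIs), and in 25.3% and 19.2% after thinning, against 1.30% and 1.36% of thinned adipocyte nuclei. Csf1r was higher in HF-HHT in 6 of 6 macrophage states, by less than 1.5-fold in each. The state led by F13a1 and Mrc1 stood at 379 and 335 CPM, and that led by Gpnmb and Mmp12 at 82.4 and 66.1 CPM, the lowest of the 6 in both libraries. With TMM factors the log2 ratio of all macrophages was 0.49 and with the states weighted as in HF-PBS 0.33, and both are below 1.5-fold.

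Csf2ra, the alpha chain that binds granulocyte-macrophage colony-stimulating factor, reached a 1.5-fold difference in 1 of the 8 classes in which it was measured, the mesothelium. Macrophages stood at 127 CPM in HF-HHT and 107 CPM in HF-PBS (log2 ratio 0.24, interval 0.14 to 0.34), dendritic cells at 113 and 102 CPM, and dividing nuclei at 84.3 and 79.6 CPM, while free RNA held 82.2 and 106 CPM. Mesothelial cells, at 6.83 and 17.8 CPM (13 and 22 UMIs, log2 ratio −1.39), were below free RNA in both.

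Csf2rb, the beta chain shared with the interleukin-3 and interleukin-5 receptors, was 2.37-fold higher in HF-HHT macrophages, where its partner chain Csf2ra stayed within 1.5-fold. It stood at 119 CPM (1274 UMIs, interval 113 to 126) in HF-HHT and 50.2 CPM (1080 UMIs, interval 47.3 to 53.3) in HF-PBS, a log2 ratio of 1.25 (interval 1.13 to 1.37). Csf2rb in free RNA stood at 61.9 and 41.9 CPM, so HF-PBS macrophages lay only a little above it. A UMI was seen in 32.4% and 20.1% of nuclei, and in 10.9% and 4.17% after thinning, against 3.77% and 1.35% of adipocyte nuclei before it. It was higher in HF-HHT in 5 of 6 macrophage states, the exception being the state led by Gpnmb and Mmp12 (78.5 and 80.0 CPM). With the states weighted as in HF-PBS the log2 ratio was 0.75. The near copy Csf2rb2 stood at 27.4 and 20.8 CPM in macrophages (log2 ratio 0.40). Dendritic cells held Csf2rb at 169 and 125 CPM (0.44, interval −0.09 to 0.97), which is not beyond counting error, and endothelium at 87.7 and 53.7 CPM (0.71, interval 0.04 to 1.42), though blood endothelium at 140.3 and 117 CPM (0.27, interval −0.42 to 1.014).

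Csf3r, the receptor of the factor that drives neutrophil production, was 4.04-fold higher in HF-HHT macrophages. It stood at 179.6 CPM (1918 UMIs, interval 172 to 188) in HF-HHT and 44.5 CPM (956 UMIs, interval 41.7 to 47.4) in HF-PBS, a log2 ratio of 2.01 (interval 1.90 to 2.13). A UMI was seen in 40.2% and 18.7% of nuclei, and in 14.995% and 4.59% after thinning, against 2.36% and 2.70% of adipocyte nuclei before it. Both levels were above free RNA (60.0 and 31.3 CPM). Csf3r was higher in 6 of 6 states, with 322 and 129 CPM in the state led by Acod1 and Saa3, 242 and 74.9 CPM in that led by F13a1 and Mrc1, and 27.2 and 17.6 CPM in that led by Gpnmb and Mmp12. With the states weighted as in HF-PBS the log2 ratio was 1.46.

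Dividing nuclei also held more Csf3r in HF-HHT, at 132 CPM (207 UMIs) in HF-HHT and 24.2 CPM (52 UMIs) in HF-PBS (log2 ratio 2.45, interval 2.01 to 2.92), and dendritic cells stood at 36.6 and 13.4 CPM (13 and 7 UMIs). APCs, at 8.60 and 1.38 CPM (24 and 7 UMIs, log2 ratio 2.64), were below free RNA in both libraries, as were dendritic cells. Neutrophil markers moved with these values, and their part in them was not tested. In macrophages the 7 markers summed to 23.5 CPM (251 UMIs, 0 at 0) in HF-HHT and 1.95 CPM (42 UMIs, 2 at 0) in HF-PBS, and the 6 monocyte markers to 429 and 61.3 CPM (none at 0). In the small Cd163 and Lyve1 state (149 HF-HHT and 129 HF-PBS nuclei), 6 and 7 of the 7 neutrophil markers were at 0. Zeros in so few nuclei do not show that neutrophil RNA was absent there. Csf3r levels there were 96.3 CPM in HF-HHT and 43.6 CPM in HF-PBS (log2 ratio 1.14, interval 0.58 to 1.74).

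**Figure D3:**
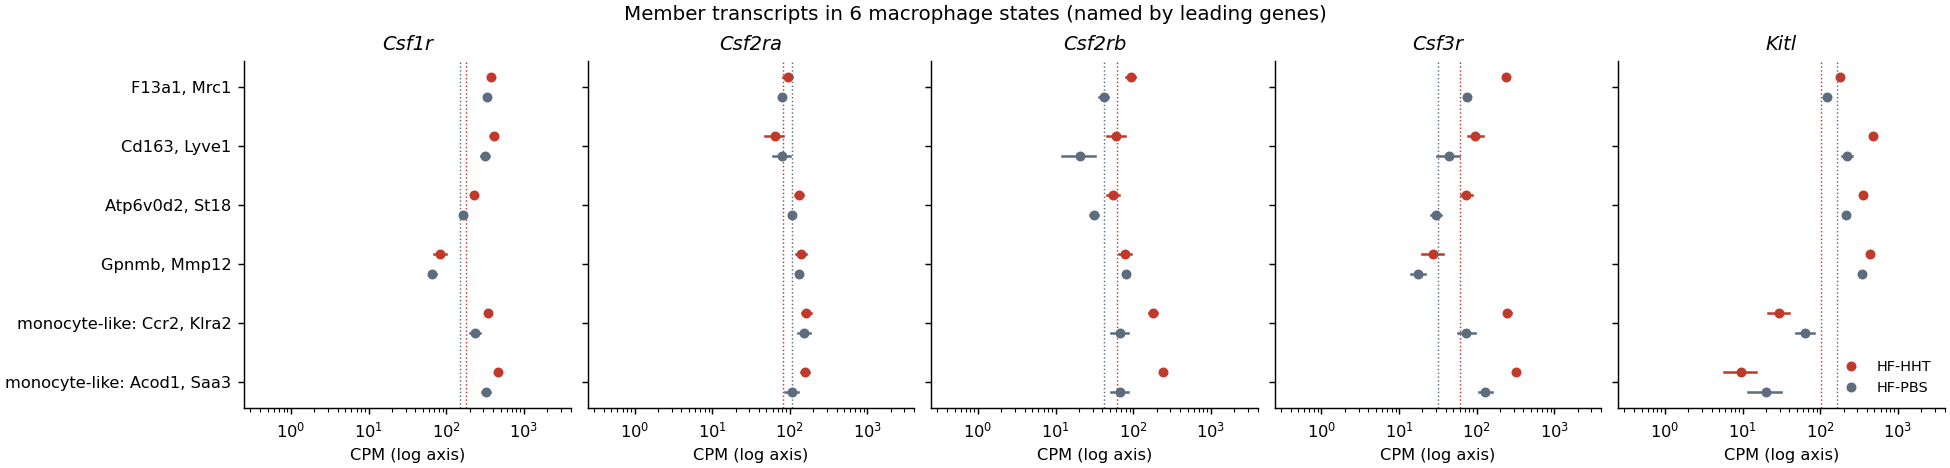
CPM (log axis) of Kitl and of the myeloid receptor genes in the 6 macrophage states, each named by its leading genes, 1 point per library with its 95% Poisson interval and dotted lines for free RNA. Csf3r and Csf1r are higher in HF-HHT in 6 of 6 states, Csf2rb in 5 of 6 and Kitl in 4 of 6.

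Taking the classes side by side, a ratio was counted as apart at 1.5-fold or more among genes with at least 20 UMIs over both libraries, as a rule of size without a test (plot of the ratios). In adipocytes 7 of 8 members were measured, with 1 higher (Csf2rb, on 34 and 2 UMIs, with a log2 ratio of 1.69 and an interval of −0.27 to 4.80) and 1 lower (Kitl). Adipocyte Csf2rb stood at 3.38 and 1.04 CPM, far below free RNA in both libraries. Of all 12593 genes measured there, 35.3% were higher and 12.5% lower. In APCs 8 were measured, with 1 higher (Csf3r) and 1 lower (Il34), where 23.2% of genes were higher and 7.87% lower. In macrophages 8 were measured and 6 were higher (Kit, Csf1, Il34, Csf1r, Csf2rb and Csf3r) with none lower, where 25.9% of genes were higher and 8.17% lower. Of the 6, Kit, Csf1 and Il34 were at 1.59, 5.99 and 2.81 CPM in HF-HHT and 0.37, 3.16 and 1.72 CPM in HF-PBS, far below free RNA. Since measured values chose the members, nothing is read from these shares.

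In these 3 classes more genes were higher than lower, and other scalings moved the counts. With TMM factors every log2 ratio of a class moved down, by 0.19 (adipocytes) or 0.20 (APCs and macrophages). Of the genes apart in adipocytes, 73.9% were higher with CPM and 63.0% with TMM factors, in APCs 74.7% and 56.2%, and in macrophages 76.1% and 59.6%. With TMM factors 4 members stayed higher in macrophages, as Csf1r and Il34 came within 1.5-fold, and 3 were lower in adipocytes, as Il34 and Csf1r joined Kitl.

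In the smaller classes, 3 members were higher and 2 lower of 5 measured in mesothelial cells (37.0% of all genes were apart), 3 and 1 of 6 in endothelium (33.2%), and 1 and 1 of 6 in dendritic cells (32.6%). In T and NK cells 2 were higher and 2 lower of 7 (28.8%), in perivascular cells none and 2 of 2 (43.2%), and in dividing nuclei 2 and none of 5 (28.5%). Mesothelial Csf1r (38.3 and 17.0 CPM, higher) and Csf2ra (lower) were below free RNA in both libraries. So was endothelial Csf1, counted as higher (33 and 8 UMIs, interval −0.23 to 2.24). Kitl and Csf2rb, the others higher in endothelium, were within 1.5-fold in blood endothelium (log2 ratios 0.53 and 0.27). By gene, over these 9 classes, Csf3r was higher in 5 of the 6 in which it was measured and lower in none, and Csf2rb higher in 4 of 7 and lower in none. Intervals lay above 0 in 4 of those 5 classes and in 3 of those 4. For Csf3r, T and NK cells (15 and 13 UMIs, interval −0.52 to 1.84), dendritic cells and APCs were below free RNA in both libraries. Macrophage markers came second, after its own, in the naming of the dividing cluster. Il34 was lower in 3 of 5 and higher in 1, macrophages, at 2.81 and 1.72 CPM. Csf2ra was higher in none and lower in 1 of 8. B cells were not compared, with 49 HF-HHT and 742 HF-PBS nuclei, nor were erythroid nuclei, of whose UMIs up to 43.2% could be free RNA in HF-PBS.

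**Figure D4:**
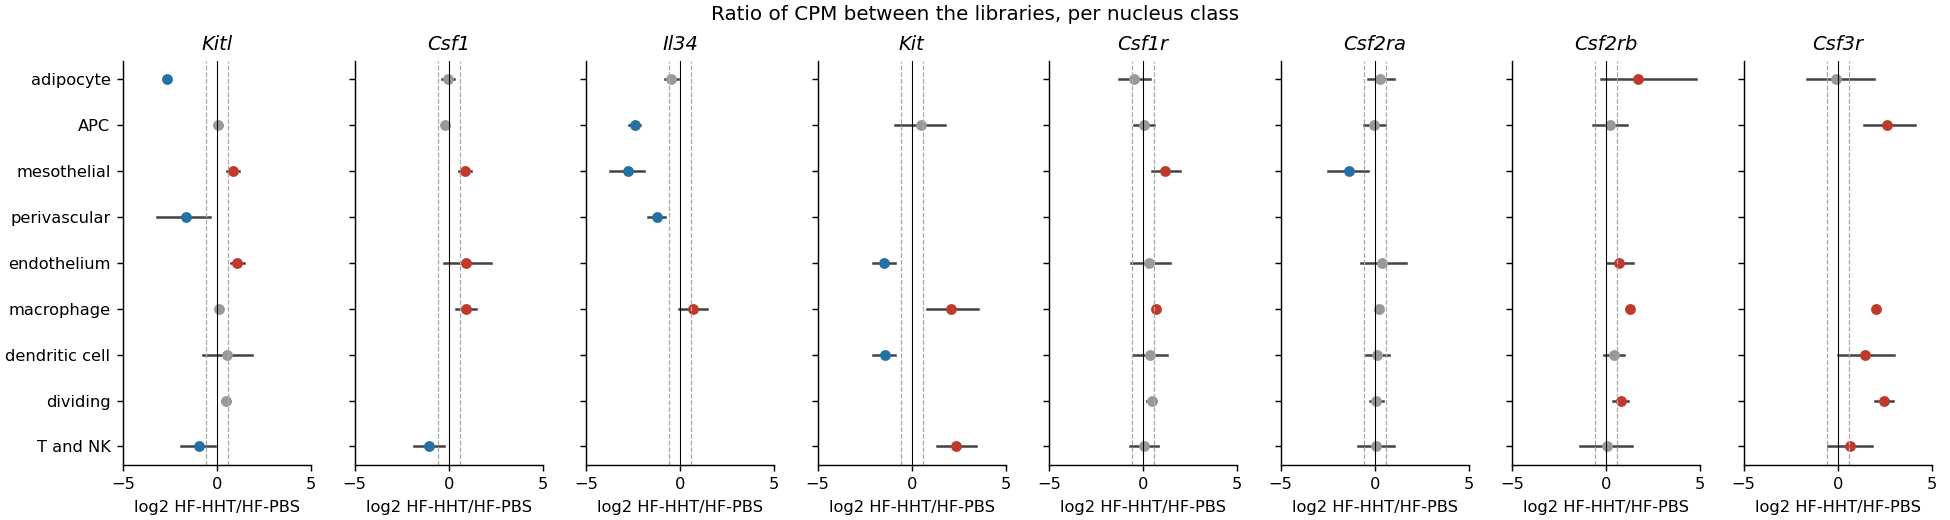
Log2 ratio (HF-HHT over HF-PBS) of each member in each compared class, with its 95% interval from the counts; dashed lines mark 1.5-fold, red points are at least 1.5-fold higher, blue points at least 1.5-fold lower, and grey points lie between. Adipocyte Kitl (−2.66), APC Il34 (−2.42) and mesothelial Il34 (−2.77, on 14 and 62 UMIs) lie far left. Macrophage Csf3r (2.01) lies to the right. Further right, on fewer UMIs, are Csf3r in APCs (2.64) and dividing nuclei (2.45) and Kit in T and NK cells (2.34) and macrophages (2.10).

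The share of a gene's UMIs that each class held joins its level with the number and depth of nuclei (plot of UMI shares). Macrophages, 34.8% of HF-HHT and 54.1% of HF-PBS nuclei, held 48.2% and 70.8% of the Kitl UMIs. Adipocytes, 13.2% and 2.23% of nuclei, held 10.9% and 10.1% of them, at the very different levels given above. APCs held 34.9% and 75.8% of the Csf1 UMIs, and adipocytes 31.5% and 6.41%, with adipocyte levels of 51.1 and 52.7 CPM. Of the Il34 UMIs, duct epithelium held 77.8% in HF-HHT. Outside the epithelia, APCs held 17.0% of the Il34 UMIs in HF-HHT and 70.3% in HF-PBS, and adipocytes 58.3% and 6.55%, with adipocyte levels of 33.8 and 47.0 CPM. Csf2ra, Csf2rb and Csf3r lay in macrophages for 72.1%, 77.5% and 85.1% of their UMIs in HF-HHT, and for 84.4%, 78.7% and 91.1% in HF-PBS.

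**Figure D5:**
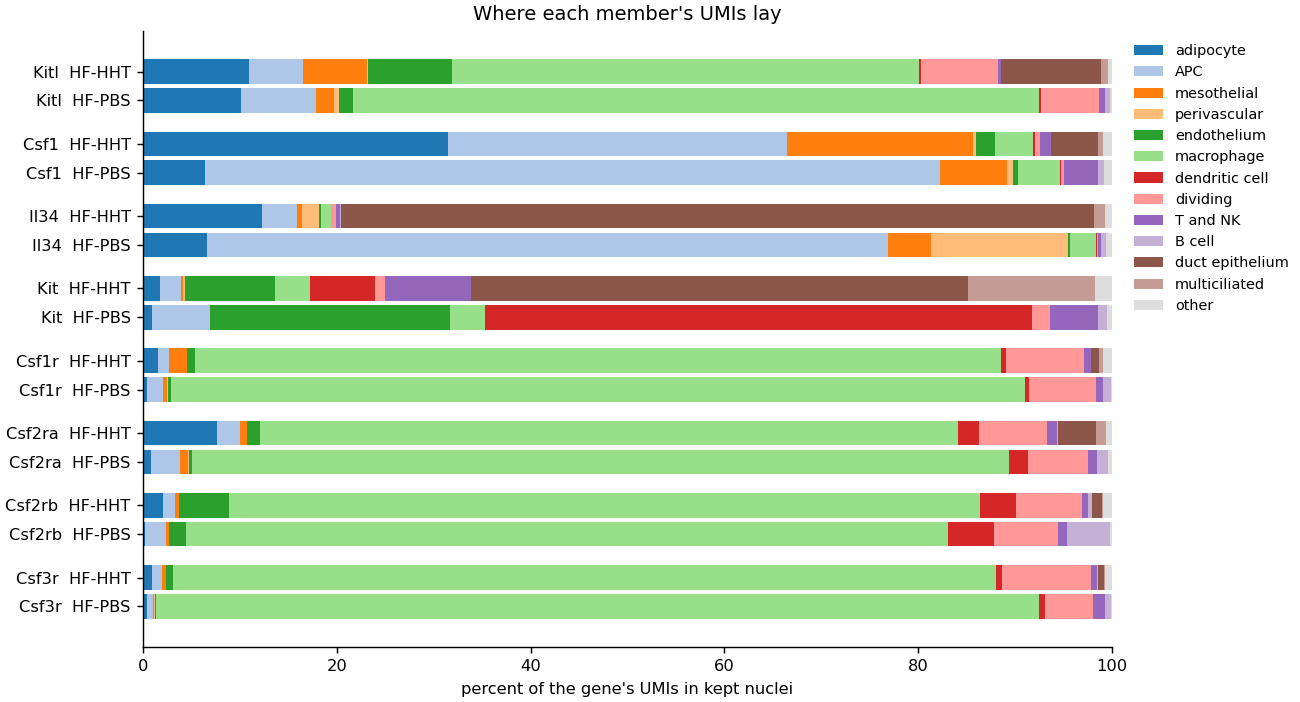
Percent of each member's UMIs held by each nucleus class in the HF-HHT and HF-PBS libraries (stacked bars, each adding up to all UMIs of the gene in kept nuclei). Macrophages hold 48.2% and 70.8% of Kitl UMIs, and duct epithelium holds 77.8% of Il34 UMIs in HF-HHT.

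Around the members, 50 other genes of these pathways were listed by role, from further ligands and receptors to shedding proteases, proximal signaling, negative regulators and transcription factors of the receptor genes. In adipocytes 39 were measured, 11 higher and 11 lower, with a median log2 ratio of 0.08, against 0.31 for all genes of the class, of which 35.3% were higher and 12.5% lower. In APCs 41 were measured, 10 higher and 7 lower (median 0.08, against 0.17), where 23.2% of all genes were higher and 7.87% lower. In macrophages 43 were measured, 14 higher and 3 lower (median 0.36, against 0.16), where 25.9% of all genes were higher and 8.17% lower. The ligand genes of Csf2ra and Csf3r were too sparse to compare, with 4 and 1 UMIs of Csf2 and 2 and 4 UMIs of Csf3 in all kept nuclei of HF-HHT and HF-PBS. The genes named next had the highest and lowest ratios past 1.5-fold among those with at least 50 UMIs in the higher library and 3 in the other.

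In macrophages the highest of these ratios were mostly those of feedback inhibitors of cytokine receptors. Socs3, which limits signaling through Csf3r among others, stood at 27.2 CPM in HF-HHT and 1.86 CPM in HF-PBS (log2 ratio 3.87), Socs1 at 9.36 and 0.70 CPM (3.75), and Cish at 5.24 and 0.51 CPM (3.36). Mmp9, a secreted protease able to release membrane-bound stem cell factor, stood at 4.68 and 0.65 CPM (2.85). These levels lay below free RNA in both libraries, which held 38.3 CPM of Socs3, 20.5 of Socs1, 45.6 of Cish and 7.97 of Mmp9 in HF-HHT and 7.34, 2.34, 4.67 and 2.89 CPM in HF-PBS. Lower genes were Cblb, an E3 ubiquitin ligase (499 and 956 CPM, −0.94), the kinase gene Src (17.0 and 28.3 CPM, −0.74) and Socs2 (2.15 and 3.58 CPM, −0.73), the last below free RNA in both libraries (18.3 and 27.8 CPM).

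In adipocytes Cish stood at 89.2 CPM in HF-HHT and 3.66 CPM in HF-PBS (log2 ratio 4.61), above free RNA (45.6 CPM) in HF-HHT. Pik3r1, the regulatory subunit of phosphoinositide 3-kinase, stood at 1254 and 411 CPM (1.61), Stat5a at 61.6 and 35.0 CPM (0.82) and the fat cell transcription factor gene Cebpa at 48.7 and 30.8 CPM (0.66). The lower genes were Inpp5d, a lipid phosphatase of blood cells (6.55 and 29.8 CPM, −2.18), the adaptor gene Gab2 (688 and 1872 CPM, −1.44), Pik3cd (4.97 and 9.40 CPM, −0.92) and Cblb (405 and 763 CPM, −0.91). Inpp5d and Pik3cd lay far below free RNA in both libraries, and Cebpa below it too (89.6 and 35.3 CPM).

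In APCs the highest of these ratios were those of Flt3l, the ligand of the dendritic cell growth factor receptor (22.6 CPM in HF-HHT and 6.49 CPM in HF-PBS, log2 ratio 1.80), Socs3 (17.9 and 6.29 CPM, 1.51), the kinase gene Jak2 (178 and 92.1 CPM, 0.95) and Irf8 (20.1 and 11.02 CPM, 0.87). The lowest were Socs2, an inhibitor of growth hormone signaling (68.5 and 206 CPM, −1.59), the transcription factor gene Runx1 (147 and 402 CPM, −1.45), Sdc1, one of the surface proteins that Il34 can bind (5.74 and 13.97 CPM, −1.28), and Inpp5d (23.3 and 45.6 CPM, −0.97). Socs2 was above free RNA in both libraries (18.3 and 27.8 CPM), and Flt3l (19.4 and 10.6 CPM) and Jak2 (137 and 122 CPM) in HF-HHT only. Socs3, Irf8, Runx1, Sdc1 and Inpp5d were below it in both. With fewer UMIs than the rule asks, Socs1 (24 and 6 UMIs) had a log2 ratio of 2.87 and Cish (25 and 18 UMIs) one of 1.34, also below free RNA in both.

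For each member, the genes with the most similar level were sought over 22 sums of 12 classes, among 11898 genes, by Pearson correlation of log2(CPM + 10). The sums of a library share its free RNA, so the coefficients are descriptions. The receptors of myeloid cells came closest to other myeloid genes. Csf1r was most like Msr1 (0.95), a scavenger receptor, Csf2ra most like Tifab (0.96), with Spi1, the PU.1 gene, close behind (0.92), Csf2rb most like the kinase gene Lyn (0.91), and Csf3r most like Aoah (0.95), an enzyme that degrades bacterial endotoxin. Csf1 followed the matrix genes Loxl1 (0.92) and Adamts2 (0.91). Kitl and Kit had no such close match, with Ctnnd1 (0.85) and Ccser1 (0.79) in the first place, and Il34 was most like Amot (0.83).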

How the data were processed

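Whole-number UMI counts per gene and barcode were deposited, not normalized and with empty droplets included. The authors made them with Cell Ranger 5.0.0 on mm10 per the labels, though the file headers and a summary of the study's software name other versions, and treatment of intron reads was not given in the sources used here. The libraries held 73313558 (HF-HHT) and 76197757 (HF-PBS) UMIs. The members and lists were chosen with earlier results of these data known.

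Barcodes were called as nuclei by depth (3000 expected) or, from 500 UMIs upward, by a difference from free RNA (barcodes of rank 45000 to 90000, false discovery rate 0.01). By Scrublet score (scanpy 1.11.5) the highest 463 and 478 barcodes were removed as likely doublets, a number set at 0.8% per 1000 called, while the automatic threshold marked 223 and 0. Kept nuclei had over 400 genes, lay under the 95th percentile of UMIs and of genes, and had mitochondrial UMIs under 0.5%. Libraries were integrated and clustered in Seurat 5.3.0 (R 4.3.3, 2000 variable features without the members and pathway genes, 30 dimensions, resolution 0.15 for classes and 1 for states). A class needed at least 3 markers found in at least 10% of its nuclei.

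UMIs were summed per class in Python 3.11.15 (numpy 2.4.6, scipy 1.17.1, pandas 2.3.3). For a gene at 0 in a library, 3 counts served as the floor. With 1 library per condition no test was run, and the ratio step was tested on simulated data. Pathway genes were named by rule, up to 4 highest and 4 lowest ratios past 1.5-fold, where the higher library had 50 or more counts and the other 3 or more. The most similar genes were named without predicted genes. Alternatives were TMM factors (edgeR 4.0.16), median-of-ratios factors, free RNA subtracted, other count minimums, every barcode from 500 UMIs upward, doublets kept, no upper limits, 5% mitochondrial UMIs, classes from resolution 1, no gene left out of clustering, and 3 chosen after seeing the data. Sequences are from RefSeq, and promoter entries matched 5 of 8 members.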

Additional observations from a re-analysis of the deposited data

Results flagged for a closer look

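Some members stood at least 1.5-fold apart in opposite directions in different classes, with intervals clear of 0 on both sides, and these differences between classes were not tested. Kitl had log2 ratios of 1.07 in endothelium and 0.86 in mesothelial cells, against −0.98 in T and NK cells, −2.66 in adipocytes and −1.66 in perivascular cells. Within blood endothelium, which held nearly all of the endothelial Kitl UMIs, it was 0.53, which is within 1.5-fold. Kit had log2 ratios of 2.34 in T and NK cells and 2.10 in macrophages (17 and 8 UMIs), against −1.43 in dendritic cells and −1.46 in endothelium. The endothelial value was −0.35 (interval −1.38 to 0.75) without the 3 highest nuclei of each library. Csf1 had log2 ratios of 0.92 in macrophages (64 and 68 UMIs) and 0.89 in mesothelial cells, against −1.02 in T and NK cells. Macrophage Kit and Csf1, and Csf1 in T and NK cells, were below free RNA in both libraries, as was Kitl in T and NK cells. Kitl was also below free RNA in mesothelial cells of HF-PBS and in perivascular cells of HF-HHT.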

How the results depend on the processing

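Of 582 log2 ratios of members recomputed under alternatives, 540 stayed within the counting interval of the value reported, 40 left it, and 2 of ratios at least 1.5-fold apart changed sign. Counting ratios within 1.5-fold, such as Kitl in macrophages, 55 of the 582 changed sign. For the main results alone, 83 of 109 ratios stayed within the interval and 26 left it. The values that left the interval, for the main results, were these. With TMM and median-of-ratios factors, the log2 ratio was −0.39 and −0.42 for Csf1 in APCs, −2.85 and −2.87 for Kitl in adipocytes, and in macrophages −0.12 and −0.13 for Kitl, 0.49 and 0.48 for Csf1r, 1.05 and 1.03 for Csf2rb and 1.82 and 1.80 for Csf3r. Without upper limits on UMIs and genes it was −0.22 for Kitl, 0.89 for Csf1r, 0.97 for Csf2rb and 2.19 for Csf3r in macrophages, and 0.49 for Csf1 in mesothelial cells. With every barcode of at least 500 UMIs, adipocyte Kitl was −2.19, and with doublets kept, APC Il34 was −1.92. Of the alternatives chosen after seeing the data, leaving out the 3 highest nuclei gave −2.42 for adipocyte Kitl and −2.79 for APC Il34. Leaving out nuclei with UMIs of macrophage markers other than Mertk gave −2.99 for adipocyte Kitl. Weighting states as in HF-PBS gave 0.53 for Kitl, 0.33 for Csf1r, 0.75 for Csf2rb and 1.46 for Csf3r in macrophages. Kitl in B cells, at −1.12 on 1 HF-HHT UMI, turned round to 0.94 with doublets kept and 1.60 without upper limits. Causes were not tested. The number of genes at least 1.5-fold apart was 6020 in adipocytes, 3784 in APCs and 4902 in macrophages, and with no minimum of counts 12475, 9671 and 9951; in APCs it was 2493 with a minimum of 50. No paired analysis was possible because each condition gave 1 library. Few nuclei limit the perivascular values (27 HF-HHT and 29 HF-PBS nuclei), and few counts the genes under 20 UMIs.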

Other observations

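The duct epithelium and multiciliated nuclei, which came only from the HF-HHT library and enter no comparison, held several members. In duct epithelium (691 nuclei) Il34 stood at 711 CPM (2155 UMIs, interval 681 to 742), with a UMI in 78.4% of nuclei, above the 40.8 CPM of free RNA. Kitl stood there at 171 CPM with a UMI in 40.1% of nuclei, and Kit at 78.5 CPM with a UMI in 22.7%, so that the ligand and its receptor were both above free RNA (102 and 17.2 CPM) in this class. In multiciliated nuclei (120 nuclei) Kit stood at 74.7 CPM (61 UMIs) with a UMI in 36.7% of nuclei, while Kitl (40.4 CPM) and Il34 (38.0 CPM) were below free RNA. Csf1r, Csf2ra, Csf2rb and Csf3r were below free RNA in both classes, at 2.45 to 24.7 CPM.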
